A study of Drosophila melanogaster with 30 samples.

Results

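The 6 BUT- libraries were compared with the 6 control libraries, 12 of the 30 libraries in the series, chosen by the treatment in the sample labels. RNA was measured in pools of whole heads from adult *Drosophila melanogaster* females aged a few days. BUT- lines descended from flies of an outbred population that, over many generations, were collected from the non-odor side of a T-maze when the other side held 2,3-butanedione. Control lines came from the same kind of maze run without odor, with flies taken from a randomly chosen side. Each treatment had 3 replicate lines and 2 pools per line, and the remaining libraries came from lines selected for attraction to 2,3-butanedione (BUT+) or for attraction (CYC+) or repulsion (CYC-) to cyclohexanone. A line is a closed population, so a difference in 1 line can also stem from drift, which cannot be told apart from selection in that line. The labels name no transgene or drug, and the 2 pools of a line are samples of 1 population, not of independent ones.

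2,3-Butanedione is a volatile diketone made by fermenting microbes, and it is part of the odor of the fruit on which flies feed. Olfactory neurons of the antenna and palp detect such odorants through odorant receptors and ionotropic receptors, and odorant-binding proteins and odorant-degrading enzymes, among them cytochromes P450, glutathione S-transferases and esterases, are secreted or expressed around them. A whole head also holds brain, compound eyes, fat body, muscle and cuticle, and in bulk samples fewer cells of a type and less RNA per cell cannot be told apart.

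Total counts ranged from 27532283 to 38146126 in BUT- libraries and from 21194086 to 38248863 in control libraries. Genes with at least 1 CPM in 15 of the 30 libraries were tested, 9240 genes in all. Levels are TMM-normalised CPM (counts scaled to a common library size), which allow a gene to be compared between samples but not with another gene of another length. All fixed markers of neurons, photoreceptors, glia and olfactory neurons were above 0 in every library. The summed markers of neurons were 2058 to 2765 CPM in BUT- libraries and 2054 to 2599 CPM in control libraries, and those of photoreceptors were 34220 to 36073 and 30654 to 43864 CPM. Markers of testis and accessory gland summed to at most 0.172 CPM in BUT- and 0.316 CPM in control libraries, with Acp26Aa and Mst84Da at 0 in all 12. The second library of BUT- line 1 lay farthest from the rest on the first 2 principal components, and values of line 1 include it unless its removal is stated.

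BUT- and control lines differed in a small part of the measured genes. With edgeR's quasi-likelihood test and Benjamini-Hochberg adjustment, 434 of 9240 genes (4.7%) were called at an adjusted p under 0.1. Of these, 189 (2.05%) were higher in BUT- and 245 (2.65%) were lower. The typical change was small, with a median size of 0.35 on the log2 scale, and 32 genes changed by 1 or more on that scale, 12 higher and 20 lower. In 384 of the called genes the 3 BUT- line means lay outside the range of the 3 control line means, 159 above and 225 below, against 7.18% of all tested genes above and 9.08% below. In 148 of them all 6 libraries of the BUT- lines lay outside the range of the control libraries, and the share of all tested genes that did so was not counted. The 434 genes were called from these same libraries, so neither the 384 nor the 148 is separate support for the calls. These p-values take the 6 libraries of a treatment as independent, and the spread between libraries of a treatment is estimated over all 30 libraries. Fitted with only the 12 BUT- and control libraries, 394 genes were called, 300 of them among the 434. With the 2 libraries of a line summed, so that the line is the unit, 23 genes were called, 6 higher and 17 lower, and 21 of these 23 were among the 434. Leaving out a line changed the count to 73 without control line 1, 137 without BUT- line 2 and 266 without BUT- line 3, and 45 of the 434 genes (19 higher, 26 lower) were called in each of the 6 fits that left out a line. All 434 kept their direction in those fits, which reuse most of the libraries that gave the calls, so this is not separate support.

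**Figure D1:**
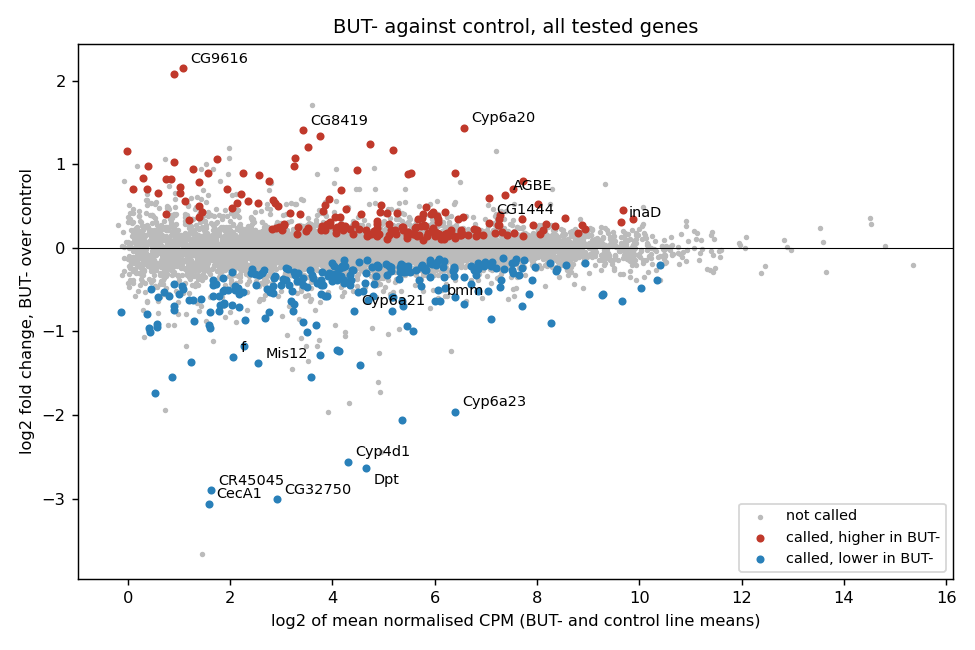
Each point is 1 of the 9240 tested genes, with the log2 of its mean normalised CPM on the x axis and its log2 fold change, BUT- over control, on the y axis, and called genes are coloured by direction. Most called genes lie within 1 of 0 on the y axis, and CecA1, CG32750 and CR45045 are the lowest called genes.

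The gene with the smallest adjusted p was CG32750, a gene of the X chromosome known only by its annotation number. It had 1.38, 1.62 and 2.15 CPM as lowest, median and highest of the BUT- libraries, against 6.94, 11.3 and 21.3 CPM in control libraries. Every BUT- library was lower than every control library. The log2 fold change was -3.01 (SE 0.29, adjusted p = 2.73e-07, edgeR's quasi-likelihood test and Benjamini-Hochberg adjustment, n = 6 libraries each), with -2.93, -2.79 and -3.08 in BUT- lines 1, 2 and 3. CG32750 was also lower in BUT- than in the mean of BUT+, CYC+ and CYC-, by 2.32 on the log2 scale (adjusted p = 7.05e-06 by the same test), and it was called with the libraries of a line summed.

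Several other genes were lower in all 3 BUT- lines, with no overlap of the libraries in Mis12, CG6071, PH4alphaMP, CG5921, CR44644, CR44645, Obp57b and CG34325. Mis12, a kinetochore protein that links centromeres to spindle microtubules, had 2.15 to 4.27 CPM in BUT- libraries, with a median of 3.26 CPM, and at least 6.89 CPM in control libraries, with a median of 8.20 CPM (log2 fold change -1.38, SE 0.20, adjusted p = 0.000346 by edgeR's quasi-likelihood test). CG6071 fell by 1.37, PH4alphaMP, a subunit of a prolyl hydroxylase, fell by 0.96, and CG5921 fell by 0.55 on the log2 scale. The long noncoding genes CR44644 and CR44645 fell by 1.74 and 1.54. They overlap on opposite strands of arm 2R, directly beside Obp57b, an odorant-binding protein gene that fell by 0.59. The counting tool and its strand setting are not given in the sources used here, so reads of overlapping and antisense genes cannot be told apart. CG34325 and CG6770 fell by 0.33 and 0.64, and su(sable), which encodes an RNA-binding protein that lowers the level of some nuclear transcripts, fell by 0.50. The libraries of CG6770 and su(sable) overlapped. Against the mean of the other selected lines, Mis12, CG5921, PH4alphaMP, CR44644 and CR44645 were also called lower. That mean hides differences between groups. CR44644 averaged 0.658 CPM in BUT- and 2.03, 0.811 and 1.22 CPM in BUT+, CYC+ and CYC-. In the same order CR44645 had 0.930, 2.90, 1.32 and 1.66 CPM, and PH4alphaMP 0.903, 1.41, 1.67 and 1.03 CPM. Mis12 had 3.24, 5.48, 6.15 and 6.62 CPM, and CG5921 11.2, 14.7, 16.0 and 14.1 CPM. CG6071, Obp57b, CG34325 and CG6770 were not called in that comparison. su(sable) was near its BUT- level in the other selected lines (BUT- minus the mean of the others, -0.01 on the log2 scale) with an adjusted p of 0.985 by edgeR's quasi-likelihood test. f, which encodes the actin-bundling protein forked of bristles, was lower than control by 1.31 and differed by 0.01 from the other selected lines.

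Among the genes with the smallest p that were higher in BUT- lines were metabolic enzymes, a phototransduction scaffold and a receptor. CG1444, annotated as spidey, encodes a 3-oxoacyl-CoA and steroid reductase of the short-chain dehydrogenase family. It had 148 to 170 CPM in BUT- libraries and 94.6 to 122 CPM in control libraries, with no overlap and with log2 fold changes of 0.58, 0.60 and 0.62 in lines 1 to 3 (overall 0.60, SE 0.09, adjusted p = 0.000346, edgeR's quasi-likelihood test). AGBE, the glycogen branching enzyme, had 169, 204 and 238 CPM as lowest, median and highest in BUT- libraries and 116, 121 and 171 CPM in control libraries, with 1 control library inside the BUT- range (log2 fold change 0.63, SE 0.09, adjusted p = 0.000346 by the same test). CG12672 rose by 0.95, Cdk4, a cyclin-dependent kinase that promotes growth, by 0.37, CG7033, annotated as CCT2, a subunit of the chaperonin that folds actin and tubulin, by 0.38, and CG32706 and CG10205 by 1.16 and 0.90. inaD, the scaffold that holds the phototransduction proteins of the photoreceptor together, had 854 to 922 CPM in BUT- libraries and 664 to 817 CPM in control libraries, a log2 fold change of 0.31 (SE 0.05). Rh7, a rhodopsin with a role in clock cells of the brain, rose by 0.69, and the receptor Lgr1, a relative of the glycoprotein hormone receptors, rose by 0.42. Against the mean of the other selected lines, CG1444, AGBE and CG7033 were also called higher. CG1444 averaged 160 CPM in BUT- and 108, 151 and 136 CPM in BUT+, CYC+ and CYC-, so CYC+ was near BUT-. In the same order AGBE had 203, 187, 142 and 153 CPM, and CG7033 74.7, 57.2, 62.4 and 67.6 CPM. CG12672, Cdk4, CG32706, CG10205, inaD, Rh7 and Lgr1 were not called in that comparison.

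**Figure D2:**
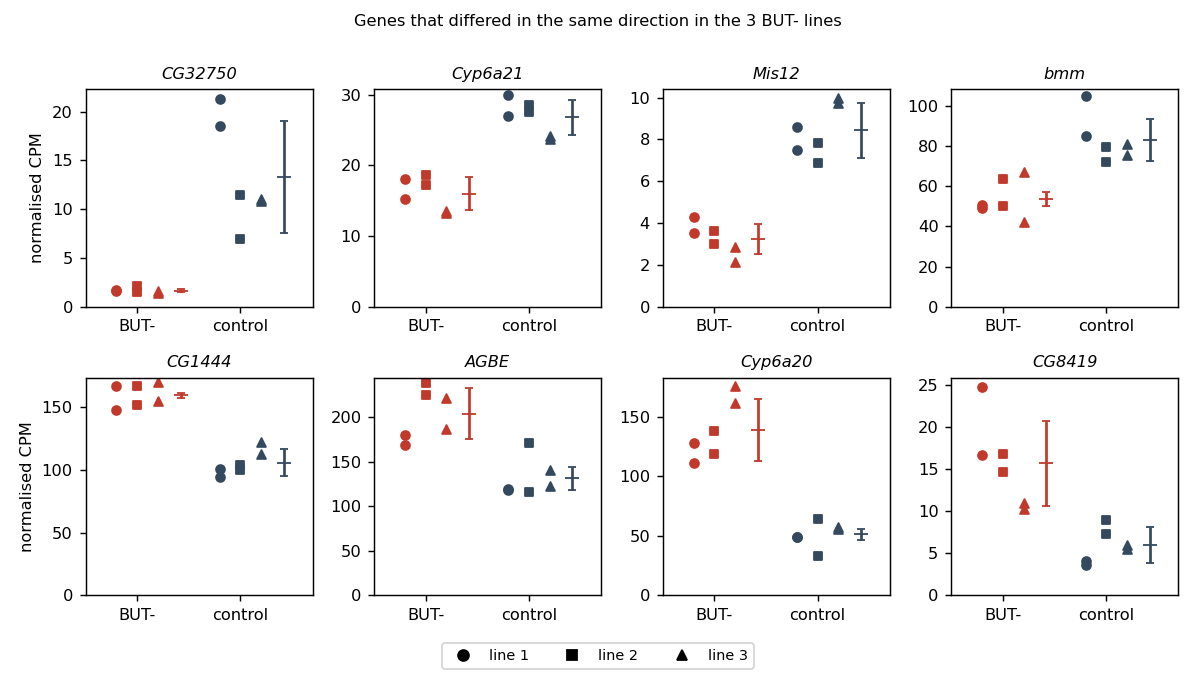
Normalised CPM of 8 genes in every library, BUT- left and control right; marker shape gives the line, and the bar to the right of each group is the mean and SD of its 3 line means. CG32750, Cyp6a21, Mis12 and bmm are low in all BUT- lines, and CG1444, AGBE, Cyp6a20 and CG8419 are high in all 3.

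Beside CG32750, the largest falls were in antimicrobial peptide genes, in Cyp4d1 and in CR45045, which the annotation classes as protein-coding and for which no function is given here. The antimicrobial genes are those whose products kill bacteria and are made by fat body after infection. CecA1 had 0.105, 0.497 and 1.32 CPM as lowest, median and highest in BUT- libraries and 0.158, 4.17 and 10.8 CPM in control libraries. Dpt had 2.87, 6.26 and 13.1 CPM in BUT- libraries and 0.920, 43.3 and 78.9 CPM in control libraries. DptB had 8.66, 13.7 and 31.9 CPM in BUT- libraries and 3.21, 65.4 and 145 CPM in control libraries. In all 3 genes the second library of control line 2 was the lowest of the control libraries, at 0.158, 0.920 and 3.21 CPM, below or within the BUT- range, while both libraries of control lines 1 and 3 were above every BUT- library. The log2 fold changes were -3.06 (SE 0.94), -2.63 (SE 0.80) and -2.06 (SE 0.67), with adjusted p of 0.079, 0.0788 and 0.099 by edgeR's quasi-likelihood test, and none of the 3 was called in any single line. Each of the 3 kept its call in 1 of the 6 fits that left out a line, the fit without control line 2. AttC, an attacin, had an adjusted p of 0.101 in the comparison of treatments and was called lower in BUT- lines 1 and 3. Of 28 antimicrobial peptide genes tested, 3 were called lower (10.7%, against 2.65% of all tested genes called lower) and 0 higher. Summing the libraries of a line left 0 called, without the second library of BUT- line 1 there was 1, and DESeq2 called 5 (590 of all 9240 tested genes). Of the 28, 24 had a negative fold change and the median was -0.35, against 0.00 over all tested genes. The Toll pathway factor Dif fell by 0.18. CR45045, which fell by 2.90, was lowest in the same control library, at 0.158 CPM. The summed fat body markers were 26069 to 90232 CPM in BUT- libraries and 37843 to 71813 CPM in control libraries, and those of hemocytes 357 to 524 and 364 to 504 CPM, and their part in these values was not tested.

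**Figure D3:**
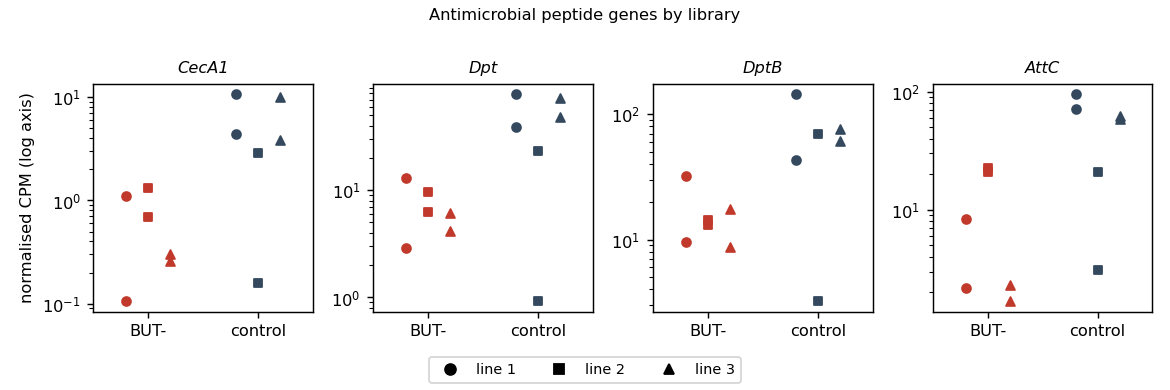
Normalised CPM on a log axis for 4 antimicrobial peptide genes in each library, BUT- left and control right, with marker shape giving the line. Control line 2 holds the lowest control value in each panel.

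Cytochromes P450, heme enzymes that oxidise hormones, fatty acids, plant toxins and odorants, were called in 11 of 69 tested members (15.9%, against 4.7% of all tested genes), 2 higher and 9 lower. Of the 69, 52 had a negative fold change and the median was -0.15 (0.00 over all tested genes). With the libraries of a line summed, 1 of the 69 was called, and without the second library of BUT- line 1, 7 were. Without the filter on low counts, which can take in more listed genes, 7 were called. Cyp6a21 had 13.2 to 18.6 CPM in BUT- libraries and 23.7 to 29.9 CPM in control libraries, a fold change of -0.75 on the log2 scale (SE 0.10, adjusted p = 0.000231, edgeR's quasi-likelihood test) that was called in each line. Cyp6a20, which has been tied to aggression in male flies, moved the other way. It had 111 to 176 CPM in BUT- libraries and 32.8 to 64.3 CPM in control libraries (log2 fold change 1.44, SE 0.26, adjusted p = 0.00265 by the same test). Cyp6a20, Cyp6a23 and Cyp6a8 lie within 1 stretch of arm 2R with CG10205, CG33506 and Lap1, and their directions differed within it: Cyp6a20, CG10205 and CG33506 rose by 1.44, 0.90 and 0.28, while Cyp6a23, Cyp6a8 and Lap1 fell by 1.96, 0.59 and 0.21. The stretch spans 107.9 kb (release 6 of the genome, chr2R:14832832-14940722). Cyp6a21 had no position on the annotation used, so it could not be counted in this or any other stretch. Cyp4p1, Cyp4p3, Cyp4e1, Cyp6t3, Cyp313a1 and Cyp4d1 were also lower, and Cyp303a1 was higher, by 0.56. P450 genes of 1 subfamily are similar in sequence, and reads shared among them were counted by a rule the sources used here do not give. Per line, 10 P450 genes were called lower and 1 higher in line 1, 4 and 3 in line 2, and 5 and 1 in line 3, with medians of -0.35, -0.13 and -0.03. Of all tested genes, 3% were lower and 3.57% higher in line 1, 2.47% and 2.27% in line 2, and 1.9% and 1.82% in line 3. Without its second library, line 1 had 3 lower and 1 higher and a median of -0.23.

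Glutathione S-transferases, which conjugate glutathione to electrophiles, were called in 2 of 30 tested members, GstE14 and GstE5 (6.67%, against 4.7% of all tested genes), both lower, by 0.52 and 0.76. Among short-chain dehydrogenases and aldo-keto reductases 6 of 43 were called (14.0%), 4 higher and 2 lower. Of these, 0 of the 30 and 1 of the 43 were called with the libraries of a line summed. Besides CG1444, CG40486 and CG40485, neighbours on the X chromosome, rose by 0.88 and 0.70, and Adh, the alcohol dehydrogenase that lets flies use fermenting fruit, rose by 0.57, while CG31809 and rdhB, a retinol dehydrogenase of the visual cycle, fell by 0.67 and 0.47. CG40486 had 76.2, 38.3 and 57.9 CPM in BUT- lines 1, 2 and 3 against 27.3, 39.4 and 27.1 CPM in control lines 1, 2 and 3, and it was called in lines 1 and 3. Of 17 UDP-glycosyltransferases, which attach sugars to small molecules, edgeR's quasi-likelihood test called 0, with 3 higher at an unadjusted p under 0.05, and DESeq2 called 1 higher. Over all 9240 tested genes, 1499 had an unadjusted p under 0.05 by edgeR's test, higher or lower, and DESeq2 called 590. CG15661, the UDP-glycosyltransferase with the smallest p, had log2 fold changes of -0.08, 0.54 and 0.60 in lines 1, 2 and 3, called in lines 2 and 3.

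Of all tested genes, 4.7% were called, and the lists for sugar use and insulin signalling held 3 and 4 calls. Of 31 genes listed for glycolysis, the tricarboxylic acid cycle and adjoining steps, 27 had a positive fold change with a median of 0.14. Of the 31, 3 were called (9.68%), all higher, against 2.05% of all tested genes called higher. These were Gpdh, Pgi and Pgd, which rose by 0.45, 0.28 and 0.30 and kept their calls in 3, 2 and 1 of the 6 fits that left out a line. Pgi catalyses a step of glycolysis, while Gpdh and Pgd act in pathways that branch from it. With the libraries of a line summed, 0 of the 31 were called, and DESeq2 called 6 (590 of all 9240 tested genes). Gpdh, glycerol-3-phosphate dehydrogenase, had 718, 949 and 1113 CPM as lowest, median and highest in BUT- libraries and 540, 719 and 834 CPM in control libraries, with overlap. The median was 0.14, 0.15 and 0.13 in lines 1, 2 and 3. GlyP, the enzyme that releases sugar from glycogen, rose by 0.35 (adjusted p = 0.084 by edgeR's quasi-likelihood test, named after its value was seen). Of 16 tested genes of insulin and adipokinetic hormone signalling, 4 were called lower (25.0%, against 2.65% of all tested genes called lower) and 0 higher, and 13 had a negative fold change with a median of -0.15. With the libraries of a line summed, 0 of the 16 were called. Without the filter on low counts, which can take in more listed genes, 1 was called. Thor, the translational repressor that the transcription factor FOXO raises when insulin signalling is low, had 145 to 254 CPM in BUT- libraries and 209 to 323 CPM in control libraries, with overlap (log2 fold change -0.55, SE 0.15, adjusted p = 0.0554 by edgeR's quasi-likelihood test). chico, the insulin receptor substrate, Pi3K92E, the lipid kinase it recruits, and S6k, a kinase downstream, fell by 0.20, 0.14 and 0.25. bmm, the lipase that breaks down stored fat, had 42.1 to 67.2 CPM in BUT- libraries and 72.1 to 105 CPM in control libraries, with no overlap, and fell by 0.63 (SE 0.15, adjusted p = 0.0286, edgeR's quasi-likelihood test). bmm was called with the libraries of a line summed, and it was the 1 of 21 lipid synthesis and storage genes called.

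Among protein folding and mitochondrial genes, 3 of 18 heat shock proteins and chaperones were called, all higher (16.7%, against 2.05% of all tested genes called higher): Hsc70Cb, Hsc70-5 and DnaJ-1 rose by 0.28, 0.17 and 0.35, and 14 of the 18 had a positive fold change (median 0.20). Of the 6 fits that left out a line, Hsc70Cb and Hsc70-5 were called in 1 each and DnaJ-1 in 0. Summing the libraries of a line left 0 of the 18 called. Without the filter on low counts, which can take in more listed genes, 1 was called. Of 15 transcripts of the mitochondrial genome, 3 were called lower, mt:srRNA, mt:ND1 and mt:ND4, by 0.59, 0.48 and 0.38 (against 2.65% of all tested genes called lower), with a median of -0.29 over the list. The median of the list in single libraries was -0.55 to -0.19 in BUT- and -0.23 to 0.34 in control, so the ranges overlapped. mt:srRNA kept its call in 0 of the 6 fits that left out a line, and mt:ND1 and mt:ND4 in 1 each. No member was called in any single line, with the libraries of a line summed or without the second library of BUT- line 1, and DESeq2 called 6 between treatments. Nuclear genes of oxidative phosphorylation had a median of 0.11 with 60 of 67 positive. edgeR called 0 of the 67, with 18 higher at an unadjusted p under 0.05, and DESeq2 called 3 higher. Of all 9240 tested genes, 1499 had such a p by edgeR's test, higher or lower, and DESeq2 called 590, 271 higher and 319 lower. The 3 called mitochondrial ribosomal protein genes, mRpS30, mRpL11 and mRpS10 (4.17% of the list), rose by 0.16 to 0.23, and the 84 cytosolic ribosomal protein genes had a median of -0.11 with 80 negative, 0 called by edgeR, 6 lower at an unadjusted p under 0.05 and 1 lower by DESeq2. The ribosomal protein list had medians of -0.28 in line 1, -0.05 in line 2 and 0.01 in line 3. In line 1 it was -0.21 without the second library, and in single libraries it was -0.20 and -0.37 in line 1 and from -0.37 to 0.18 in control libraries, so the control range covered both. Aminoacyl-tRNA synthetases gave 2 higher, CysRS and MetRS-m, and 1 lower, ValRS-m, of 33 (9.09%).

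Of the chemosensory genes, 1 member each was called among odorant receptors, ionotropic receptors and odorant-binding proteins. Of 19 odorant receptors tested, Or63a was called (5.26%, against 4.7% of all tested genes), higher by 0.56. Of 12 ionotropic receptors, Ir31a was called (8.33%), lower by 0.57, and of 28 odorant-binding proteins, Obp57b (3.57%). With the libraries of a line summed, 0 members of these 3 lists were called, and without the second library of BUT- line 1 the call of Or63a was lost. Of 9 gustatory receptors edgeR called 0, with 1 higher at an unadjusted p under 0.05 and 0 called by DESeq2 (1499 and 590 of all 9240 tested genes). Most receptors are expressed by few cells of a head, and 19 of the 60 odorant receptors listed passed the filter on low counts. Or63a was high in 2 of the BUT- lines: it had 6.93, 7.25 and 3.96 CPM in BUT- lines 1, 2 and 3 against 4.58, 3.07 and 4.60 CPM in control lines 1, 2 and 3.

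Neuronal and eye genes differed in a few named cases. Pdfr, the receptor for the clock peptide PDF, and Lgr1 were the 2 of 36 neuropeptide receptors called (5.56%, against 4.7% of all tested genes). Pdfr had 65.2 to 74.0 CPM in BUT- libraries and 43.6 to 66.0 CPM in control libraries, with 1 control library inside the BUT- range, and rose by 0.40 (SE 0.08, adjusted p = 0.00783 by edgeR's quasi-likelihood test). Of 29 phototransduction genes 3 were called (10.3%), inaD and Rh7 higher and santa-maria, a carotenoid scavenger receptor, lower by 0.26. Neither list had a call with the libraries of a line summed. The eye pigment transporter st rose by 0.46. Arc1, a retrotransposon-derived protein that forms RNA-carrying capsids in neurons, had 36.5 to 66.0 CPM in BUT- libraries and 13.7 to 30.5 CPM in control libraries and rose by 1.17, and its neighbour Arc2 rose by 0.71. Arc1, Arc2 and AttC were named after their values were seen. Surface proteins gave isolated calls, with Dscam4 higher by 0.43 and DIP-alpha, Nlg1, the integrin mew and the gap junction protein Inx3 lower by 0.64, 0.30, 0.19 and 0.22. Calls were 1 of 52 Dpr, DIP and Beat/Side proteins (1.92%) and 2 of 36 other immunoglobulin and leucine-rich adhesion proteins (5.56%). They were 1 of 15 integrins, laminins and basement membrane genes (6.67%), 1 of 5 innexins and 0 of 16 cadherins. None of these was called with the libraries of a line summed. edgeR called 0 genes between treatments in the lists for acetylcholine, GABA and glutamate signalling, synaptic vesicle release, voltage-gated channels and amines, whose medians were 0.01, 0.03, 0.05 and 0.07. At an unadjusted p under 0.05 by edgeR's test these lists held 2, 1, 0 and 2 genes of 40, 24, 21 and 30 tested, and DESeq2 called 1, 0, 0 and 0. Of all 9240 tested genes, 1499 had such a p, and DESeq2 called 590. In line 1 their medians were 0.20, 0.17, 0.24 and 0.16, against -0.11 to 0.01 in lines 2 and 3. Without the second library of line 1 they were 0.06, 0.02, 0.06 and 0.06.

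**Figure D4:**
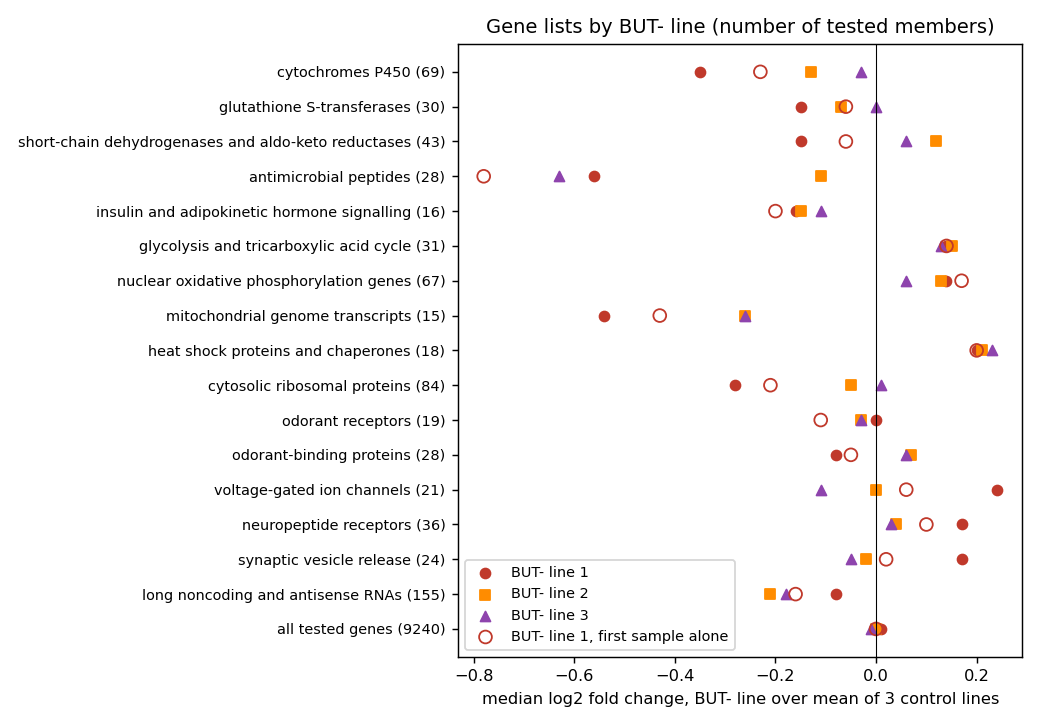
Median log2 fold change over the tested members of 16 gene lists and over all tested genes, each BUT- line over the mean of the 3 control lines; open circles give BUT- line 1 from its first library alone. Cytochrome P450 and antimicrobial peptide medians are negative in all 3 lines, glycolysis and chaperone medians are positive in all 3, and the medians of voltage-gated channels, neuropeptide receptors and synaptic vesicle release in line 1 are smaller from its first library alone.

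The list of long noncoding and antisense RNAs, chosen by gene name, had 18 of 155 tested genes called (11.6%, against 4.7% of all tested genes), 2 higher and 16 lower, with a median of -0.17 and 117 negative. The annotation classes 134 of the 155 as noncoding RNA, 15 of them called, 15 as pseudogenes and 3, CR45045 among them, as protein-coding, and gives no class for the other 3. None of the 155 was called with the libraries of a line summed. Without the filter on low counts, 40 genes of the list were called. That fit tested 15895 genes, calling 390, and took in listed genes beyond the 155, so the 40 are not a share of the 155. roX1, an RNA of the male dosage compensation complex, was at 2.86, 2.57 and 2.60 CPM in BUT- lines 1, 2 and 3 against 4.91, 4.34 and 3.64 CPM in control lines 1, 2 and 3, a fall of 0.68. Its libraries did not overlap between treatments. alrm, an astrocyte marker, fell by 0.25, while the summed glial markers were 784 to 888 CPM in BUT- and 830 to 960 CPM in control libraries.

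Called genes were spread over the arms, with 6.33% of tested genes on the X, 5.19% on 3L, 4.45% on 2R, 3.91% on 3R, 3.89% on 2L and 3.66% on chromosome 4. Of called genes with a position, 49.4% had another called gene within 50 kb, against 39.6% of genes not called. The run with the most called genes was on the X (chrX:9054698-9303636, release 6), with 12 called genes of 43 tested, 10 higher and 2 lower: CG15365, HP1b, CG32706, CG7033, AP-1gamma, CG7065, Bap111, Dlip1, Larp7 and lz rose and su(r) and SmydA-9 fell. CG15365 differed most in line 1 (1.06, or 0.96 without its second library, against 0.37 and 0.44 in lines 2 and 3). Members of these runs were named because they lie in them. On 3R, 6 of 29 tested genes in a run fell together, CG11852, CG31300, CG13658, CG13659, CG31370 and CG10560, by 0.45 to 0.89, and CG11852 is annotated as Jhbp7, a member of the takeout family of juvenile hormone-binding proteins. The run on 3R spans chr3R:25237614-25320101. A run on the X that holds Cp7Fa, an eggshell gene, had CG11190, CG1440 and CG15347 higher and lawc and Cp7Fa lower.

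Line by line, 607 genes (6.57%) were called in BUT- line 1 against the mean of the control lines, 438 (4.74%) in line 2 and 344 (3.72%) in line 3. Of these, 418, 215 and 123 were called in that line alone, and 67 in all 3 lines, 59 of them in 1 direction (29 higher, 30 lower). In the test among lines given below, 87 of the 418, 32 of the 215 and 27 of the 123 also differed among the BUT- lines. For the rest, a call in 1 line alone was not shown to be a difference between lines. Without its second library, line 1 gave 129, of which 52 were called in that line alone, and 39 genes were called in all 3 lines, 35 of them in 1 direction. A test of the difference among the BUT- lines called 284 genes (3.07%), or 110 without the second library of line 1, and the same test among the control lines called 201 (2.18%). Of the 434 genes called between treatments, 39 differed among BUT- lines. The contrasts of all 3 lines subtract the same control mean, so a gene's calls in several lines are not independent of each other. The 2 pools of a line share its history, so a call shows that a line differs and not why.

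In line 1, CG13022 had 14.1 and 8.04 CPM, against 2.13 to 2.92 CPM in lines 2 and 3 and 1.58 to 3.32 CPM in control libraries. CG7730 was likewise higher in line 1 (log2 fold change 1.91, or 1.98 without the second library) and CG18190 lower (-2.88, or -2.84 without it). sdt, a polarity protein of photoreceptors and epithelia, had 321 and 342 CPM in the libraries of line 1 against means of 237 and 239 CPM in lines 2 and 3. GstE5 had 3.58 and 2.69 CPM in the libraries of line 1, means of 9.17 and 8.46 CPM in lines 2 and 3 and 10.4 to 13.8 CPM in the 3 control lines. All 5 of these genes were also called in line 1 without its second library. In line 2, Adh had 10.7 and 11.0 CPM, against means of 7.38 and 7.51 CPM in lines 1 and 3 and 4.27 to 6.59 CPM in control lines. There CG4594 rose by 0.90, CG5142 rose by 0.74 and CG31751 fell by 0.37. Adh and CG31751 were not called as differing among the BUT- lines (adjusted p = 0.161 and 0.135, edgeR's quasi-likelihood F test). CG4594 also differed among control lines, at 3.70, 4.95 and 2.37 CPM (adjusted p = 0.0189 by the same test). In line 3, CG12268 had 42.8 and 39.4 CPM, against means of 10.1 and 11.1 CPM in lines 1 and 2 and 11.3 to 12.7 CPM in control libraries. CG34273 fell by 2.20 and CR44417 rose by 0.72 in line 3. CG3632 was called higher in line 3, at 138 CPM, but control line 3 had 135 CPM and the other control lines 105 and 101 CPM.

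Some genes split the lines by level. Cyp4d1, a P450, was near 0 in lines 2 and 3, with 0.307 and 0.504 CPM and with 0.331 and 0.229 CPM, and was 20.6 and 12.7 CPM in line 1, against 22.0 to 39.4 CPM in control libraries. Its log2 fold change was -2.56 over all lines and -6.60 without BUT- line 1. otu, a deubiquitinase of the female germline, was 0.844 and 0.280 CPM in line 2, 15.6 and 20.2 CPM in line 1 and 25.8 and 25.3 CPM in line 3, against 34.7 to 62.4 CPM in control libraries. It was the 1 of 8 ovary markers that passed the filter, and the 8 summed to 0.588 to 32.3 CPM in BUT- and 36.3 to 64.3 CPM in control libraries. This sum largely follows otu itself, so it is not a separate measure of ovary RNA. The other ovary markers reached at most 3.70 CPM in BUT- libraries (osk) and 3.06 CPM in control libraries (Cp38). Whether ovary tissue was carried into some pools was not tested. Cyp6a23 was low in all lines but least in line 2 (62.9 CPM, against 17.1 and 22.9 CPM in lines 1 and 3 and 96.8 to 168 CPM in control lines). Hsc70-2, a heat shock cognate gene, was 1.26 and 1.78 CPM in line 1 and 23.3 to 26.0 CPM in lines 2 and 3, and control line 1 was also low, at 1.66 and 1.30 CPM, with means of 15.2 and 10.8 CPM in control lines 2 and 3. CG31157 had the same split, with 0.308 CPM in BUT- line 1 and 0.188 CPM in control line 1, so this difference was present within the control too. CG14567 was 20.2 CPM in line 2, against 9.26 and 4.81 CPM in lines 1 and 3 and 4.24 to 13.7 CPM in control lines.

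**Figure D5:**
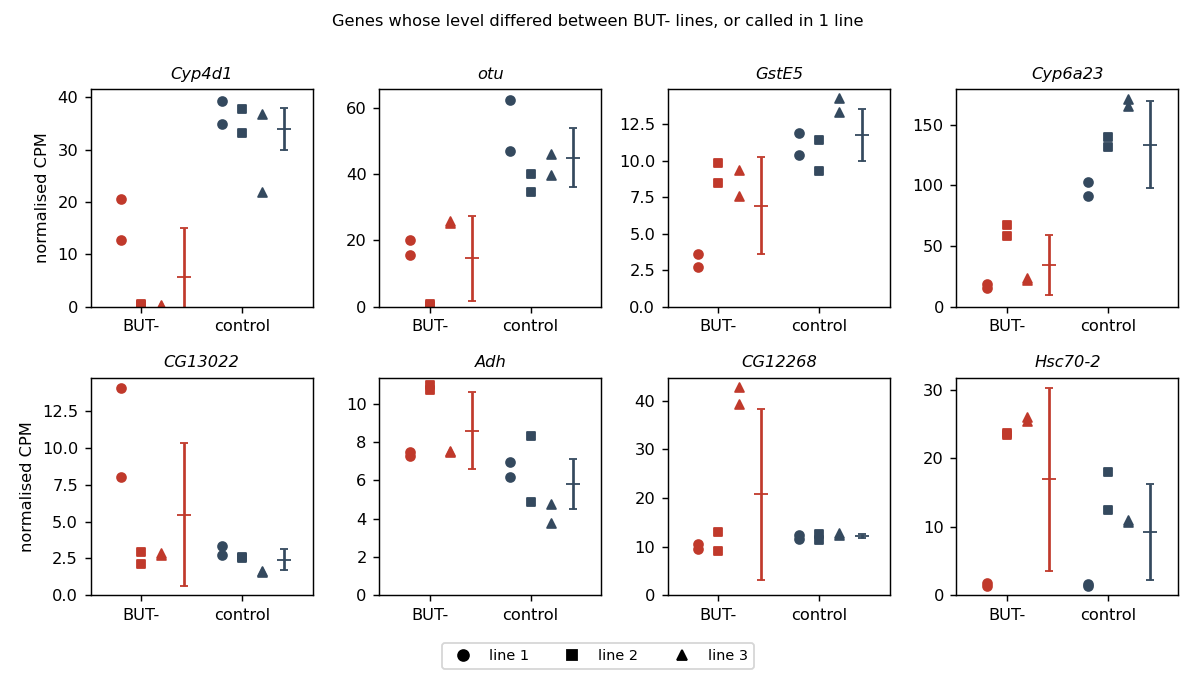
Normalised CPM of 8 genes in every library, BUT- left and control right; marker shape gives the line, and the bar beside each group is the mean and SD of its 3 line means, cut at 0. Cyp4d1 is near 0 in BUT- lines 2 and 3, CG12268 is high in line 3 alone, and Hsc70-2 is low in line 1 of both treatments.

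Against the average of the other selected lines, 101 genes (1.09%) were called, and 43 of them were among the 434 called against control, all in the same direction. CG32750 led them. CG17272, Cyp4p1 and CG15629 were lower in BUT- than in the other selected lines, by 0.62, 0.58 and 0.34 on the log2 scale, and lower than control by 0.36, 0.38 and 0.36. CG2650, annotated as dyw, was higher by 1.05 against the other selected lines and by 0.87 against control, with 7.10 to 8.08 CPM in the BUT- lines and 3.02 to 6.11 CPM in the control lines. capu, a formin that nucleates actin filaments, was higher by 0.21 and 0.16. Line means of CG2650 did not overlap between BUT- and control, but its libraries did. BUT-, BUT+, CYC+ and CYC- lines averaged 7.60, 2.52, 4.37 and 4.49 CPM of CG2650, against 4.19 CPM in control lines.

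Some further called genes belong to no group above or to small ones. CG9616 rose by 2.15 and CG43799 by 2.08 (adjusted p = 0.0932 and 0.0817 by edgeR's quasi-likelihood test), and all 6 BUT- libraries were above all control libraries in both. Their control levels were low, with means of 0.785 and 0.719 CPM over the control lines. Both kept their call in 0 of the 6 fits that left out a line, and neither was called with the libraries of a line summed. yellow-d, of a family tied to pigmentation, fell by 0.70, and the cuticle protein genes Cpr76Bc and Lcp65Ac fell by 0.84 and 0.79, 2 of 28 cuticle genes tested (7.14%, against 4.7% of all tested genes). The serpin Spn55B, a protease inhibitor, fell by 0.58, sxe2, a lipase-like gene of the fat body, rose by 0.49, and Mlp60A, a muscle LIM protein, fell by 0.32.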

How the data were processed

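Counts per gene, as deposited by the authors, came from reads trimmed with Trim Galore! and Cutadapt and aligned with STAR. The counting tool, its version and its strand setting are not given in the sources used here. The deposited tables list 17471 genes, 1576 without a read, and 17242 (98.7%) were placed on the BDGP6 annotation. Genes with at least 1 CPM in 15 of 30 libraries (9240) were fitted with edgeR 4.0.16 in R 4.3.3 (TMM, quasi-likelihood test, Benjamini-Hochberg adjustment, called under 0.1), with 5 treatment means, and with 15 line means for contrasts of single lines. Standard errors are the fold change over the square root of F. Alternatives used DESeq2 1.42.0 and limma 3.58.1. Python 3.11.15 with pandas 2.3.3, numpy 2.4.6 and matplotlib 3.10.9 made the summaries and plots. The scripts were tested on simulated data.

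The members and gene lists were chosen with earlier results of these data known, and the P450 and translation factor name patterns were corrected after the files were seen. Named genes are up to 12 higher and 12 lower with the smallest adjusted p and line means outside the control range, up to 3 per list, and the leading genes of each single line, of the difference among lines and of the contrast with other selected lines, and others are marked. Total counts per library were 21194086 to 38248863, so depth limits mainly genes near 1 CPM. Alternatives changed the threshold, normalisation, filter, tool, unit of replication, block and libraries. The numbers of BUT- and control lines did not pair them (correlations of deviations -0.145, -0.202 and -0.11).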

Additional observations from a re-analysis of the deposited data

Results flagged for a closer look

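Among the named genes, 1 library stood far from the other 5 of its group in 11 cases, where chance flags about 1 in 20 groups. Both groups of every named gene were checked, so 11 flags are not more than that rate gives. AP-1gamma had 128 CPM in the second library of BUT- line 1 (others 112 to 117) and Pka-R1 266 CPM in the same library (229 to 240). Dif had 125 CPM in the first library of BUT- line 3 (99.5 to 108) and 108 CPM in the second library of control line 3 (122 to 130). CG32706 had 0.345 CPM in the first library of control line 2 (0.605 to 0.693), and yellow-d 66.6 CPM in the second (45.5 to 53.4). CG33506 had 17.5 CPM (12.3 to 14.1) and Cyp4d1 22.0 CPM (33.3 to 39.4) in the second library of control line 3. The first library of control line 1 stood apart in CG43799 at 1.44 CPM (0.447 to 0.731), CG5142 at 8.73 CPM (5.69 to 6.75) and TotX at 25.6 CPM (10.9 to 16.0).

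The 3 BUT- lines differed from each other, by edgeR's quasi-likelihood F test with Benjamini-Hochberg adjustment, in 29 named genes. The adjusted p was 2.31e-11 for Hsc70-2, 1.59e-08 for CG12268, 4.47e-08 for CG31157, 6.19e-08 for CG14567, 3.12e-07 for otu and 1.03e-06 for Cyp6a23. It was 5.99e-05 for Cyp4d1, 6.48e-05 for sdt and for GstE5, 7.19e-05 for CG18190, 0.000165 for CG3632, 0.00018 for CG13022 and 0.000694 for CG34273. It was 0.00106 for CG7730, 0.00109 for CR44417, 0.00268 for CG8419, 0.00334 for CG40485, 0.00699 for CG15365, 0.00711 for CG40486 and 0.00857 for CG5142 and for Spn55B. It was 0.0133 for Or63a, 0.0294 for CNMa, 0.0378 for CR44644, 0.0396 for CG15661, 0.0711 for CG4594, 0.0752 for Cpr76Bc, 0.0836 for CG43799 and 0.0845 for Mis12. CG8419 had 20.7, 15.7 and 10.6 CPM in BUT- lines 1, 2 and 3 and 3.86, 8.11 and 5.77 CPM in control lines 1, 2 and 3. CNMa, which encodes a neuropeptide, had 27.4 CPM in BUT- line 1, above the 14.3 CPM of BUT- line 3 and the 8.81, 14.9 and 11.6 CPM of control lines 1, 2 and 3.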

How the results depend on the processing

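The count of 434 genes called between BUT- and control was 172 at an adjusted p under 0.05, 23 with libraries of a line summed, 3 with only BUT- and control lines summed, 207 with limma and line as a random block, 2 from first samples and 9 from second samples. Leaving out a line gave 73 to 443, and leaving out the second sample of BUT- line 1 gave 472. With line number as a replicate block 462 were called, with sample number 607 and with both 623. DESeq2 called 590 and no filter gave 390. Of 107 named genes that were called, 11 kept the call with lines summed, 63 with limma, 34 without control line 1 and 107 with DESeq2, and none changed direction under these settings. The settings reuse the same libraries, so an unchanged direction is not separate support.

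For BUT- line 1 (607) the stricter threshold gave 332, fitting only the 12 libraries 1083, leaving out a control line 238 to 720, and leaving out its own second sample 129. Line 2 (438) gave 281 at the stricter threshold and 289 to 477 without a control line. Line 3 (344) gave 208 and 201 to 405. The difference among BUT- lines (284) gave 191 at the stricter threshold, DESeq2 414 and 110 without the second sample of line 1. Against the other selected lines (101), the stricter threshold gave 19, DESeq2 206, summed lines 4, limma 22, line and sample as a block 173, sample as a block 136, first samples 1 and second samples 2. Fits with summed or fewer libraries hold fewer samples by construction, and otherwise the cause was not tested. The fits without that sample and with only BUT- and control lines summed were chosen after seeing the data.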
